A study of Mus musculus with 8 samples.

Results

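The endosomal sorting machinery was read in retinal ganglion cells of mice that lack NPC1. Its members were the rows of the deposited table whose gene symbol begins with Vps, Chmp or Snx followed directly by a digit, together with Hgs, Stam, Stam2 and Tsg101. The rule took 75 of 24942 genes, and it used names only. Ganglion cells are the output neurons of the retina, and their axons form the optic nerve. Their RNA was sequenced at postnatal day 8, and it was taken from the plate right after immunopanning, a purification on antibody-coated dishes. NPC1-deficient mice gave 4 libraries and their wildtype littermates another 4, and the labels name the strain balb/cnctr-npc1m1n/j for both groups. This allele is a germline mutation, so every cell type of these mice lacks NPC1, not ganglion cells alone. The labels give neither the sex nor the number of animals behind a library, and every p-value here reflects the spread between these 8 libraries alone.

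Endosomes sort what a cell takes up. ESCRT complexes bind ubiquitinated membrane proteins and bud them into the lumen of the endosome, on the way to destruction in the lysosome. Retromer and many sorting nexins instead lift receptors out of the endosome and return them to the Golgi or to the plasma membrane, and tethering complexes such as HOPS bring late endosomes and lysosomes together to fuse. NPC1, the protein lost in Niemann-Pick disease type C, exports cholesterol from the end point of this route, the late endosome and lysosome. The comparison addresses whether the RNA of this machinery differs in neurons without NPC1.

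Library totals ran from 33030175 to 44050118 reads. Npc1 stood at 707, 754, 831 and 857 normalized reads in wildtype 1 to 4 and at 139.8, 70.0, 67.6 and 66.1 in NPC1-deficient 1 to 4. These levels follow the titles, whereas the strain field of the labels assigns the word wildtype to libraries 1 and 2 of either group and homozygous to libraries 3 and 4. All 13 ganglion cell markers passed the filter on low values, and summed they reached 389065 to 415996 normalized reads (wildtype) and 415289 to 442966 (NPC1-deficient). Markers of other cells were also present. The summed level of 14 microglial markers was 3814 in wildtype 1 and 9018 to 15775 in wildtype 2 to 4, against 2714 to 4422 in NPC1-deficient libraries, with no marker at 0. That of 10 rod markers was 2677 to 6764 against 1559 to 2237, and that of 7 Mueller glia markers 15419 to 17238 against 13676 to 14549. Of the 6 Mueller glia markers tested, 4 were lower and 2 higher, with a median log2 fold change of -0.29. Their sum includes Apoe, at a mean of 2082 normalized reads in wildtype and 814 in NPC1-deficient libraries. Bipolar and amacrine markers were mostly lower too, 7 of 7 with a median log2 fold change of -0.79 and 6 of 7 with -1.45. Among the markers of these 5 cell types, 1 passed, Apoe, listed here with Mueller glia, at -1.31 (SE 0.21, adjusted p = 0.0482 by limma). Among wildtype libraries Apoe was lowest in wildtype 1 and highest in wildtype 4, as was the microglial sum. Slc1a3 and Rlbp1 of the Mueller glia list were highest in wildtype 1 and lowest in wildtype 4, while Clu was highest in wildtype 4. Which cells the Apoe RNA came from was not tested. Wildtype 1 stood apart in its sex-linked RNA, with Xist at 595 and a sum of 45.6 for 4 Y-linked genes, which was 1241 to 3788 in the other 7 libraries. Xist ran from 18.2 to 238 in the other 3 wildtype libraries and from 0 to 68.1 in the 4 NPC1-deficient ones, so the sex mix of the libraries and the genotype cannot be fully told apart. In such bulk samples, fewer cells of a type and less RNA per cell cannot be told apart.

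No member passed the test between NPC1-deficient and wildtype libraries. Of the 75 members, 74 had a mean of at least 10 normalized reads and were tested, and Snx33 at 9.98 was not. With limma and Benjamini-Hochberg adjustment over all 15386 genes tested, 0 of 74 were called, beside 0.104% of all genes (0.039% higher and 0.065% lower). At an unadjusted p under 0.05 there were 3 members, Stam2, Snx20 and Vps37c, which is 4.05% beside 6.76% of all genes. On the recovered reads edgeR also called 0 members (0.104% of all genes) and DESeq2 0 members (1.6% of all genes), and each had 3 members (4.05%) at an unadjusted p under 0.05, beside 6.93% of all genes with edgeR and 6.4% with DESeq2. A positive fold change was found for 44 members (59.5%), beside 52% of all genes. The members' log2 fold changes ran from -0.64 to 0.17 with a median of 0.015, and the median over all genes tested was 0.0050.

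The data bounded most members closely. The 95% confidence interval of the fold change lay wholly between 0.8 and 1.25 for 61 of 74 members (82.4%), beside 53.6% of all genes tested. The fold change itself was under 0.1 on the log2 scale in either direction for 62 members (83.8%), beside 62.6% of all genes. Members were abundant: their median level was 1986 normalized reads, against 513 over all genes tested. All 52 members with a mean of at least 1000 normalized reads had an interval within these bounds, as had 93.5% of the 5765 genes at that level. Of the 8 members tested with a mean under 200, none had. For these 8 and for Vps37b, Vps37c, Snx30, Vps13a and Vps13d, 13 members in all, larger changes lay within the interval.

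**Figure D1:**
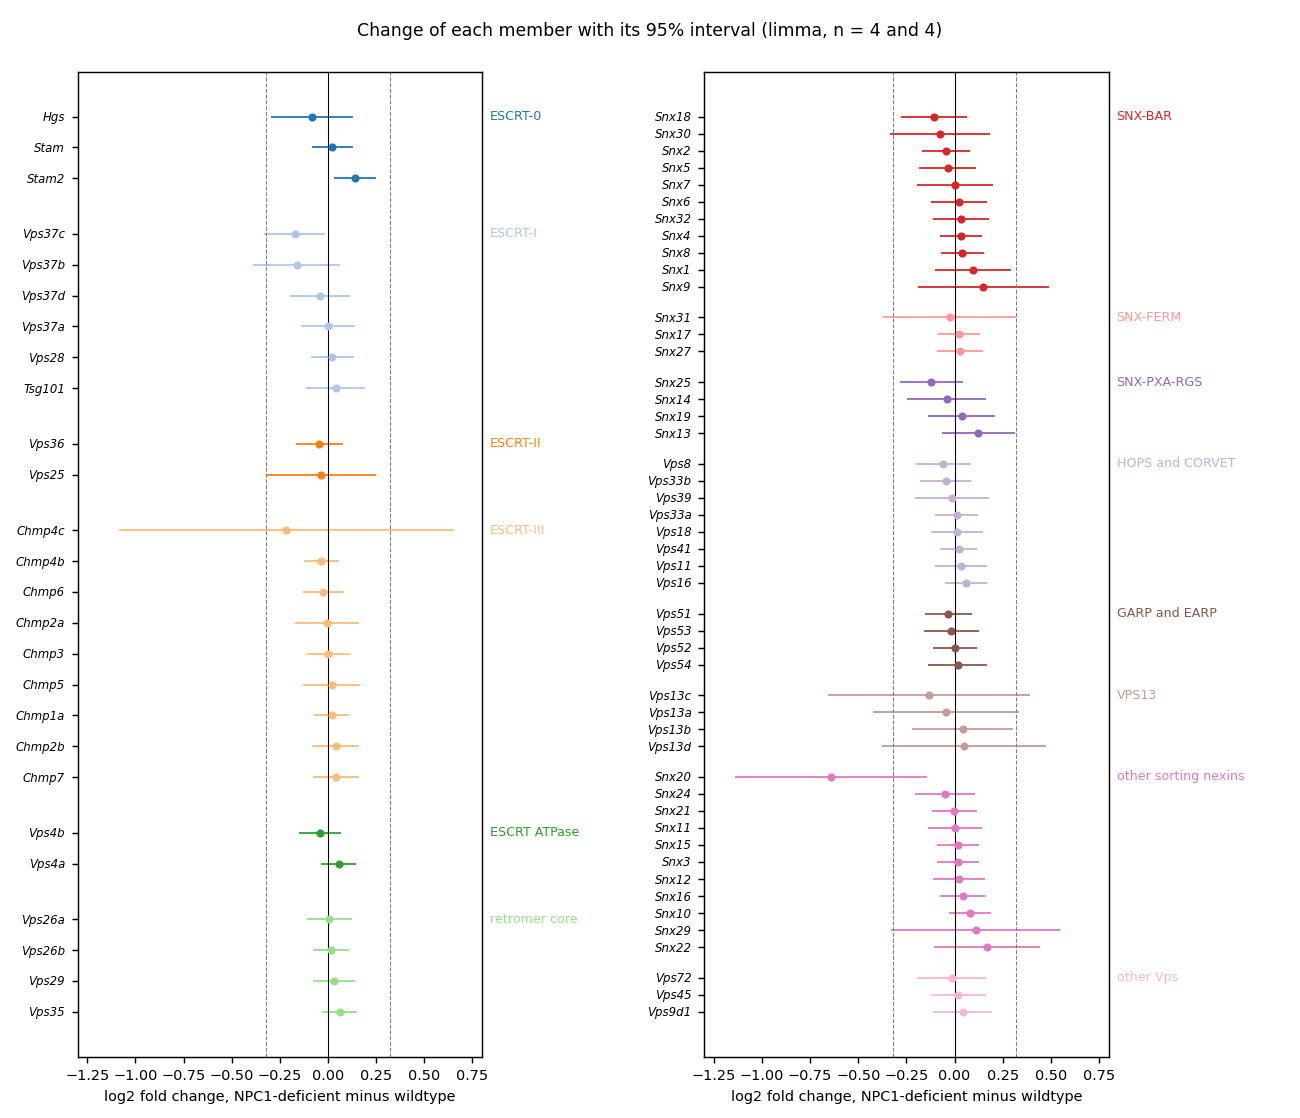
Log2 fold change (NPC1-deficient minus wildtype) of the 74 members tested, in 2 panels by role, with 95% confidence intervals from limma (n = 4 and 4); dashed lines mark 0.8-fold and 1.25-fold. For 61 members the whole interval lies between the dashed lines, and Snx20, at -0.64, is farthest from 0.

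ESCRT-0, which gathers ubiquitinated cargo at the endosome surface, held the member with the smallest p. Stam2 (ENSMUSG00000055371, chromosome 2, 52691664 to 52742281, minus strand, mm10), a cargo-binding partner of HRS, stood at 1621, 1627, 1666 and 1739.5 normalized reads in wildtype 1 to 4 and at 1839, 1856, 1821 and 1825 in NPC1-deficient 1 to 4. Every NPC1-deficient library lay above every wildtype library. Its log2 fold change was 0.14 (SE 0.050, adjusted p = 0.458 by limma), with an interval of 0.034 to 0.25, so it did not pass. It was 0.19 in libraries 1 and 2 of each group compared alone and 0.10 in libraries 3 and 4. Its close relative Stam was at 6044 ± 208 in wildtype and 6146 ± 265 in NPC1-deficient libraries (SD, n = 4 each), a log2 fold change of 0.024 (SE 0.049).

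Hgs, which encodes the ESCRT-0 core protein HRS, stood at 1799, 1419.9, 1523 and 1439.9 normalized reads in wildtype 1 to 4 and at 1591, 1647, 1296 and 1310.3 in NPC1-deficient 1 to 4. The groups overlapped, wildtype 1 was the highest library, and NPC1-deficient 3 and 4 were the lowest. The log2 fold change was -0.083 (SE 0.10, adjusted p = 0.995 by limma). Its reads are uncertain, since GENCODE M21 holds another gene model of the same name and strand that shares 97.2% of its exonic length.

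ESCRT-I takes cargo over from ESCRT-0, and its VPS37 subunit comes in 4 versions. The largest differences of the complex were in 2 of these versions, and both were lower in NPC1-deficient libraries. Vps37c (ENSMUSG00000048832, chromosome 19, 10688735 to 10714627, plus strand, mm10) stood at 709, 676, 727 and 669 normalized reads in wildtype 1 to 4 and at 599.8, 667, 634 and 568 in NPC1-deficient 1 to 4. The groups did not overlap, though wildtype 4 and NPC1-deficient 2 lay next to each other. The log2 fold change was -0.17 (SE 0.072, adjusted p = 0.633 by limma), with an interval of -0.33 to -0.016. Vps37b stood at 831, 676, 757 and 683 normalized reads in wildtype 1 to 4 and at 535, 686, 693 and 725 in NPC1-deficient 1 to 4. Here NPC1-deficient 1 alone lay below all wildtype libraries, and the log2 fold change of -0.16 (SE 0.10, adjusted p = 0.909 by limma) was -0.31 in libraries 1 and 2 alone and -0.020 in libraries 3 and 4 alone. An opposite-strand gene, Hip1r, shares 32.9% of the exonic length of Vps37b. Vps37a and Vps37d had log2 fold changes of -0.0011 (SE 0.065) and -0.041 (SE 0.072).

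Over all libraries, fold changes of the other ESCRT-I subunits were close to 0. Tsg101, which binds ubiquitin and recruits the later complexes, was at 6042 ± 298 in wildtype and 6236 ± 622 in NPC1-deficient libraries (SD, n = 4 each), a log2 fold change of 0.041 (SE 0.070). The value for Tsg101 was -0.065 in libraries 1 and 2 alone and 0.15 in libraries 3 and 4 alone. Vps28, which links ESCRT-I to ESCRT-II, was at 7963 ± 284 in wildtype and 8092 ± 427 in NPC1-deficient libraries (SD, n = 4 each), a log2 fold change of 0.022 (SE 0.052). Among the VPS37 versions the wildtype level per kilobase of exon was 781 ± 32.8 normalized reads for Vps37d, 349 ± 17.8 for Vps37a, 264 ± 26.1 for Vps37b and 257 ± 10.1 for Vps37c (SD, n = 4). Vps37b and Vps37c did not differ beyond their spread.

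ESCRT-II starts the assembly of the membrane-cutting polymer. Vps36 stood at 3580.3, 3762, 3335 and 3296 normalized reads in wildtype 1 to 4 and at 3347, 3573, 3317 and 3300.0 in NPC1-deficient 1 to 4. Vps25 stood at 129, 148, 127 and 154 normalized reads in wildtype 1 to 4 and at 126, 120.1, 164 and 136 in NPC1-deficient 1 to 4. Both overlapped between groups, with log2 fold changes of -0.044 (SE 0.056) and -0.036 (SE 0.13). The low level of Vps25 is uncertain, since it shares 67.2% of its exonic length with Ramp2 on the same strand and reads there may not be assigned.

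ESCRT-III polymers, built of CHMP proteins, cut the bud from the membrane. None of the 9 Chmp genes passed. Their median log2 fold change was 0.0028, with 5 above and 4 below 0. Chmp2b, mutated in a familial frontotemporal dementia, was at 6188 ± 482 in wildtype and 6349 ± 98.4 in NPC1-deficient libraries (SD, n = 4 each), a log2 fold change of 0.040 (SE 0.057). Chmp4b, the main filament subunit, stood at 6454, 6328, 6224 and 6388 normalized reads in wildtype 1 to 4 and at 6327, 6092, 6280.4 and 6087 in NPC1-deficient 1 to 4, a log2 fold change of -0.035 (SE 0.042). Chmp7, which also works at the nuclear envelope, stood at 5882, 6697, 6663 and 6250.2 normalized reads in wildtype 1 to 4 and at 6909, 6675, 6205 and 6445 in NPC1-deficient 1 to 4, a log2 fold change of 0.042 (SE 0.056). For both genes the groups overlapped. Chmp4c, a paralog of Chmp4b with a role in the last step of cell division, was near the detection limit, at 5.70, 14.1, 7.46 and 21.5 normalized reads in wildtype 1 to 4 and at 7.26, 11.01, 11.99 and 7.23 in NPC1-deficient 1 to 4. Its log2 fold change of -0.22 had an interval of -1.09 to 0.65, the widest of all members tested.

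The ATPases VPS4A and VPS4B take the ESCRT-III polymer apart. Vps4a (ENSMUSG00000031913, chromosome 8, 107031222 to 107045755, plus strand, mm10) stood at 5752, 5906, 5873 and 5908 normalized reads in wildtype 1 to 4 and at 5989, 6122, 6151 and 6096 in NPC1-deficient 1 to 4. All NPC1-deficient libraries lay above all wildtype libraries, by a small margin. The log2 fold change was 0.055 (SE 0.041, adjusted p = 0.953 by limma), and its interval was -0.034 to 0.14. Vps4b stood at 2155, 2191, 2216 and 2356 normalized reads in wildtype 1 to 4 and at 2234, 2171, 2131 and 2128 in NPC1-deficient 1 to 4. Its groups overlapped, and the log2 fold change was -0.041 (SE 0.051). Per kilobase of exon the wildtype level was 2323 ± 29.2 normalized reads for Vps4a and 250.4 ± 9.86 for Vps4b (SD, n = 4). The lengths used, 2522 bases for Vps4a and 8905 for Vps4b, count the exons of all annotated transcripts. The SD does not cover that choice of length. Without division by length the wildtype means were 5860 and 2230 normalized reads.

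Retromer is a trimer of VPS35, VPS29 and one of 2 VPS26 versions, and VPS35 is mutated in a familial Parkinson disease. All 4 genes had a positive fold change with limma on all libraries, and none passed. Under other processing or subsets of libraries the log2 fold change went down to -0.021 for Vps26a and -0.0051 for Vps26b. Vps35 (ENSMUSG00000031696, chromosome 8, 85260392 to 85299802, minus strand, mm10) was the member with the most reads, at 18608, 19948, 19482 and 19435 normalized reads in wildtype 1 to 4 and at 20239, 20559, 19973 and 20017 in NPC1-deficient 1 to 4. The groups did not overlap, since the highest wildtype library, wildtype 2, lay just under the lowest NPC1-deficient library. The log2 fold change was 0.061 (SE 0.042, adjusted p = 0.928 by limma), with an interval of -0.031 to 0.15. Vps29 stood at 9684, 10633, 9917 and 10472 normalized reads in wildtype 1 to 4 and at 10516, 9831, 10444 and 10843 in NPC1-deficient 1 to 4, a log2 fold change of 0.033 (SE 0.050) with overlapping groups. Vps26a was at 2298 ± 103 in wildtype and 2310.0 ± 94.1 in NPC1-deficient libraries (SD, n = 4 each), and its log2 fold change was 0.008 (SE 0.054). Vps26b was at 9381 ± 215 in wildtype and 9488 ± 269.8 in NPC1-deficient libraries (SD, n = 4 each), and its log2 fold change was 0.016 (SE 0.043). Per kilobase of exon the wildtype level was 2176 ± 62.6 normalized reads for Vps35, 1839.7 ± 42.1 for Vps26b, 1655 ± 73.05 for Vps29 and 803 ± 36.1 for Vps26a (SD, n = 4). This order depends on the lengths used, which count the exons of all annotated transcripts. Without division by length the wildtype mean of Vps29, 10176, lay above that of Vps26b, 9381.

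Over all roles, groups did not overlap for 4 of 74 members (5.41%), beside 4.27% of all genes tested. Stam2, Vps35 and Vps4a lay higher in NPC1-deficient libraries (1.86% of all genes did so) and Vps37c lower (2.41%). Without wildtype 2 there were 8 such members, beside 6.7% of all genes, and without both wildtype 1 and NPC1-deficient 1 there were 7, beside 12.6%.

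**Figure D2:**
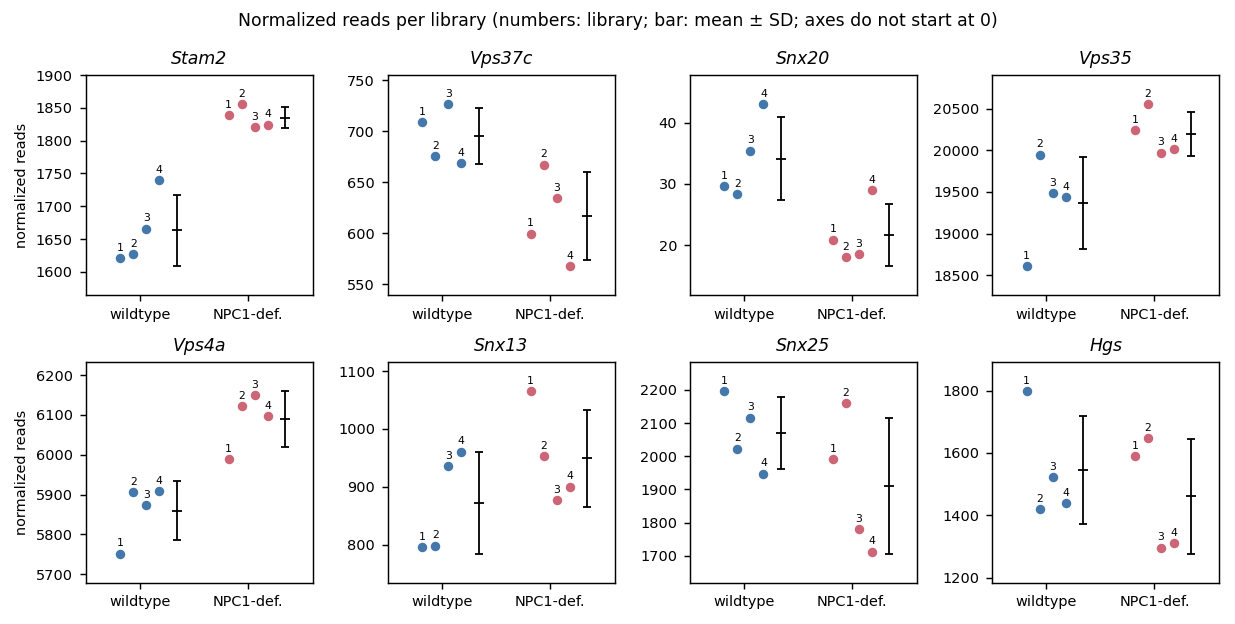
Normalized reads in each library for 8 members, with wildtype in blue and NPC1-deficient in red, the library number at each point and the mean ± SD in black (n = 4); the vertical axes do not start at 0. Stam2, Vps37c, Vps35 and Vps4a show no overlap of the groups, and Snx25 and Hgs show NPC1-deficient 3 and 4 below NPC1-deficient 1 and 2.

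Sorting nexins bind the endosomal lipid PI3P through a PX domain. Those with a BAR domain bend membrane into tubules, and SNX1, SNX2, SNX5 and SNX6 do so beside retromer. None of the 11 members of the BAR class tested passed, and their median log2 fold change was 0.025. Snx1 stood at 741, 795, 1007 and 923 normalized reads in wildtype 1 to 4 and at 897, 895, 935 and 949 in NPC1-deficient 1 to 4. All NPC1-deficient libraries lay within the wildtype range, which was wide, and the log2 fold change was 0.094 (SE 0.091, adjusted p = 0.983 by limma). Snx2, Snx5 and Snx6 had log2 fold changes of -0.044 (SE 0.057), -0.035 (SE 0.068) and 0.025 (SE 0.066).

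Snx18 and Snx9, which act in endocytosis with dynamin, had fold changes of opposite sign. Snx18 stood at 519.8, 509, 501 and 447 normalized reads in wildtype 1 to 4 and at 423, 456, 483 and 472 in NPC1-deficient 1 to 4, a log2 fold change of -0.11 (SE 0.080, adjusted p = 0.953 by limma), which was -0.23 in libraries 1 and 2 alone and 0.013 in libraries 3 and 4 alone. Snx9 stood at 85.5, 96.9, 110.0 and 69.1 normalized reads in wildtype 1 to 4 and at 93.5, 98.1, 110.1 and 94.99 in NPC1-deficient 1 to 4, a log2 fold change of 0.15 (SE 0.16, adjusted p = 0.995 by limma). Neither separated the groups. Snx33, the third of this trio and the untested member, stood at 15.96, 6.05, 19.6 and 3.59 normalized reads in wildtype 1 to 4 and at 7.26, 7.005, 15.3 and 5.16 in NPC1-deficient 1 to 4, where 3 reads correspond to 2.69 to 3.42 normalized reads depending on the library.

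Nexins with a FERM domain recycle receptors to the cell surface. Snx27, which binds the tails of many receptors through a PDZ domain, stood at 5671, 5447, 5747 and 5502 normalized reads in wildtype 1 to 4 and at 5485, 6315, 5649 and 5422 in NPC1-deficient 1 to 4, a log2 fold change of 0.030 (SE 0.055). Snx17, which recycles receptors of the LDL receptor family, stood at 4748, 4832, 4752 and 4810.4 normalized reads in wildtype 1 to 4 and at 5187, 4499, 4885 and 4919 in NPC1-deficient 1 to 4, a log2 fold change of 0.024 (SE 0.051). The groups overlapped for both. Snx31 was at 89.5 ± 17.1 in wildtype and 87.1 ± 8.96 in NPC1-deficient libraries (SD, n = 4 each).

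SNX13, SNX14, SNX19 and SNX25 are membrane-anchored nexins with a PXA domain, and several of them lie at contacts of the endoplasmic reticulum with endosomes or lipid droplets. None of the 4 passed. Snx13 (ENSMUSG00000020590, chromosome 12, 35047186 to 35147479, plus strand, mm10) stood at 796, 798, 935 and 961 normalized reads in wildtype 1 to 4 and at 1065, 954, 876 and 900.4 in NPC1-deficient 1 to 4. It was higher in NPC1-deficient libraries among libraries 1 and 2, with a log2 fold change of 0.34, and lower among libraries 3 and 4, with -0.093. The overall value was 0.12 (SE 0.087, adjusted p = 0.936 by limma). The interaction of genotype with these library sets had a limma adjusted p of 0.176 for Snx13, and 0 of 74 members passed that test, beside 0.078% of all genes. At an unadjusted p under 0.05 there were 5 members, 6.76% beside 13.4% of all genes. Snx25 stood at 2197, 2023, 2116 and 1948 normalized reads in wildtype 1 to 4 and at 1992, 2161, 1780.2 and 1713 in NPC1-deficient 1 to 4, with NPC1-deficient 3 and 4 the lowest libraries. Its log2 fold change was -0.12 (SE 0.076, adjusted p = 0.907 by limma). Snx14 and Snx19 had log2 fold changes of -0.041 (SE 0.095) and 0.037 (SE 0.080).

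The largest difference of any member was in Snx20 (ENSMUSG00000031662, chromosome 8, 88626563 to 88636128, minus strand, mm10), which encodes a partner of the adhesion protein PSGL-1 in blood leukocytes. It stood at 29.6, 28.3, 35.4 and 43.1 normalized reads in wildtype 1 to 4 and at 20.9, 18.01, 18.5 and 28.9 in NPC1-deficient 1 to 4, a low level in all libraries. Wildtype 4 was highest, and only NPC1-deficient 4 reached into the wildtype range. The log2 fold change was -0.64 (SE 0.23, adjusted p = 0.462 by limma), with an interval of -1.14 to -0.14. It was -0.55 in libraries 1 and 2 alone and -0.73 in libraries 3 and 4 alone. All 14 microglial markers had a negative fold change as well, with a median of -1.47 and a range of -1.99 to -0.52, though none passed. Such lower values were not particular to microglia: rod markers were lower in 10 of 10, with a median of -1.07, and bipolar and amacrine markers as given above. They were not alike in all cell types. Mueller glia markers were lower in 4 of 6, with a median of -0.29. Those of endothelial cells and pericytes had a median of -0.064, with 4 of 5 lower and 1 higher. The summed level of the microglial markers was highest in wildtype 4, as was Snx20. In wildtype 1 that sum, 3814, lay within the NPC1-deficient range, while Snx20 at 29.6 lay above all 4 NPC1-deficient libraries. The part of RNA of microglia or of these other cells in the Snx20 value was not tested.

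The other nexins named here kept overlapping groups. Snx10, mutated in a form of osteopetrosis, stood at 8510.3, 9012, 8619 and 9124 normalized reads in wildtype 1 to 4 and at 10048, 9117, 9199.8 and 8935 in NPC1-deficient 1 to 4, a log2 fold change of 0.080 (SE 0.050, adjusted p = 0.905 by limma). Snx22 stood at 171, 156, 145 and 149.8 normalized reads in wildtype 1 to 4 and at 148, 187, 162 and 208 in NPC1-deficient 1 to 4, a log2 fold change of 0.17 (SE 0.13), the largest positive value of any member. The opposite-strand gene Ppib shares 28.5% of its exonic length. Snx29 stood at 101, 79.7, 128 and 85.2 normalized reads in wildtype 1 to 4 and at 107, 132, 73.04 and 116 in NPC1-deficient 1 to 4, a log2 fold change of 0.11 (SE 0.20), which was 0.40 in libraries 1 and 2 alone and -0.18 in libraries 3 and 4 alone. Snx3, which guides retromer to Wnt-carrying and transferrin receptor cargo, was at 8941 ± 482 in wildtype and 9045 ± 313 in NPC1-deficient libraries (SD, n = 4 each), a log2 fold change of 0.018 (SE 0.051). It had the highest wildtype level per kilobase of exon of the 74 members with a length, 6328 ± 341 normalized reads (SD, n = 4). This rank depends on the lengths used, which count the exons of all annotated transcripts, 1413 bases for Snx3.

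**Figure D3:**
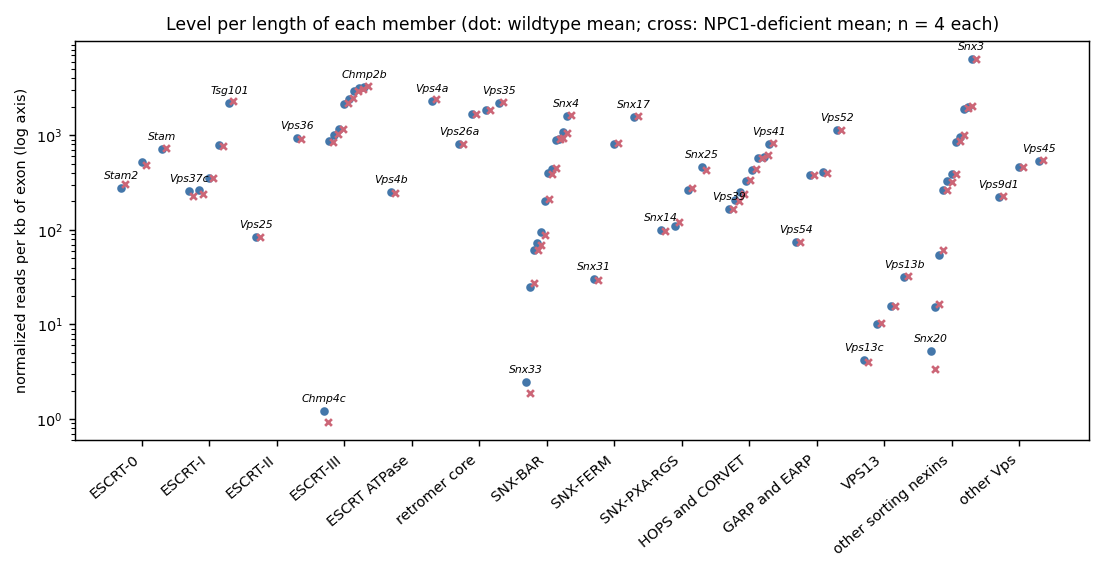
Normalized reads per kilobase of exon on a log axis for the 74 members with an exon length in GENCODE M21, by role; dots are wildtype means and crosses NPC1-deficient means (n = 4 each), and the lowest and highest member of each role are named. Levels run from 1.21 for Chmp4c to 6328 for Snx3 in wildtype, and dots and crosses nearly coincide for most members. Lengths count the exons of all annotated transcripts.

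HOPS and CORVET are tethers that share a core of VPS11, VPS16, VPS18 and VPS33A. VPS39 and VPS41 are particular to HOPS at the late endosome, and VPS8 to CORVET at the early endosome. Vps33b, counted with them here, encodes the partner of VIPAS39 in a separate complex, and its log2 fold change was -0.046 (SE 0.062). None of the 8 genes passed, and their median log2 fold change was 0.012, with 5 above and 3 below 0. Vps16 stood at 2175, 2223, 2296 and 2089 normalized reads in wildtype 1 to 4 and at 2249, 2287, 2307 and 2306 in NPC1-deficient 1 to 4, a log2 fold change of 0.060 (SE 0.050). Vps8 stood at 2163, 2033, 2168 and 1906 normalized reads in wildtype 1 to 4 and at 1838, 2171, 1950.3 and 1987 in NPC1-deficient 1 to 4, a log2 fold change of -0.059 (SE 0.066). In both genes the groups overlapped. Vps41 was at 5486 ± 101 in wildtype and 5569.9 ± 147 in NPC1-deficient libraries (SD, n = 4 each), a log2 fold change of 0.022 (SE 0.044). Vps39 was at 1429 ± 88.2 in wildtype and 1423 ± 179.8 in NPC1-deficient libraries (SD, n = 4 each), a log2 fold change of -0.013 (SE 0.087), which was 0.13 in libraries 1 and 2 alone and -0.16 in libraries 3 and 4 alone.

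Promoters were searched for the motif that TFEB, the regulator of lysosomal genes, is known to bind. RefSeq promoter sequences on GRCm38.p6, from 250 bases before to 50 bases after each gene start, matched 51 members with 62 promoters. The core TCACGTGA, a palindrome that reads alike on both strands, was in 4 of the 62 (6.45%), beside 0.974% of all 32851 promoters in the table. These belong to Vps16, Vps33a and Vps26a, and their matches are printed 5′ to 3′ on the gene's strand with the core in capitals, to show which members carry it.
Vps16, chr2:130424291-130424318, plus strand: ggcggcctcgTCACGTGAccccgaaggg
Vps33a, chr5:123573027-123573054, minus strand: gcgactcggaTCACGTGAacgtcccgtc
Vps33a, chr5:123573016-123573038, minus strand: gaacgtcccgTCACGTGAcgcag
Vps26a, chr10:62486971-62486998, minus strand: gcacggctcgTCACGTGAcaactagctc
Vps26a, chr10:62486733-62486760, minus strand: tggcctacggTCACGTGAcgggcggcgg
A match shows letters only, not binding, and the 2 Vps33a windows overlap. The matches begin 19 bases before the start of Vps16, 29 and 13 before that of Vps33a, and 183 and 152 before the 2 starts of Vps26a. The log2 fold changes of the 3 genes were 0.060 (SE 0.050), 0.011 (SE 0.051) and 0.008 (SE 0.054). The 3 members with this core thus had fold changes between 0.008 and 0.060. The shorter CACGTG, which the core contains, was in 7 of the 62 promoters (11.3%), beside 7.15% of all. The sterol regulatory element TCACNCCAC was in 1 promoter on either strand (1.61%), that of Vps54, beside 1.24% of all.

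GARP tethers vesicles that return from endosomes to the Golgi. Vps54, mutated in the wobbler mouse with motor neuron loss, was at 559 ± 24.2 in wildtype and 566 ± 27.5 in NPC1-deficient libraries (SD, n = 4 each), a log2 fold change of 0.016 (SE 0.070). Vps51 stood at 1883, 1811, 1746 and 1885 normalized reads in wildtype 1 to 4 and at 1900.2, 1802, 1765 and 1699 in NPC1-deficient 1 to 4, a log2 fold change of -0.032 (SE 0.056). Vps53 stood at 2128, 1961, 1936 and 1939 normalized reads in wildtype 1 to 4 and at 2052, 2148, 1865 and 1816 in NPC1-deficient 1 to 4, a log2 fold change of -0.017 (SE 0.065). Vps52 was close to even at 0.0023 (SE 0.053), and none of the 4 genes separated the groups. Among the remaining Vps genes, Vps9d1 stood at 1126, 1181, 1211 and 1059 normalized reads in wildtype 1 to 4 and at 1152, 1253, 1245 and 1069.7 in NPC1-deficient 1 to 4, a log2 fold change of 0.043 (SE 0.070). Vps45, which acts with syntaxins in endosome fusion, stood at 2167, 2120.2, 2099 and 2228 normalized reads in wildtype 1 to 4 and at 2440.2, 1975, 2107 and 2232 in NPC1-deficient 1 to 4, a log2 fold change of 0.019 (SE 0.066). Vps72 belongs to a chromatin complex in spite of its symbol, and its log2 fold change was -0.015 (SE 0.082).

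The VPS13 genes encode long lipid transfer proteins at membrane contact sites. None of the 4 passed, and libraries of the same group differed widely. Vps13a, lost in chorea-acanthocytosis, stood at 269, 324, 281 and 246 normalized reads in wildtype 1 to 4 and at 277, 394, 202 and 243 in NPC1-deficient 1 to 4. Vps13b, mutated in Cohen syndrome, stood at 792, 659, 637 and 588 normalized reads in wildtype 1 to 4 and at 770.4, 807, 594 and 597 in NPC1-deficient 1 to 4. In both, NPC1-deficient 2 was the highest of the 8 libraries. Vps13c, linked to Parkinson disease, stood at 78.7, 73.7, 72.7 and 50.2 normalized reads in wildtype 1 to 4 and at 61.7, 100.1, 44.7 and 52.7 in NPC1-deficient 1 to 4. Vps13d, which acts in mitochondrial upkeep, stood at 328, 246, 272 and 163 normalized reads in wildtype 1 to 4 and at 290.4, 298, 202 and 235 in NPC1-deficient 1 to 4. In each of the 4 genes NPC1-deficient 2 lay above NPC1-deficient 3 and 4, and wildtype 4 was the lowest wildtype library. The log2 fold changes were -0.042 (SE 0.17), 0.043 (SE 0.12), -0.13 (SE 0.24) and 0.048 (SE 0.19) for Vps13a to Vps13d. The geometric mean of the 4 was 133% of its average in NPC1-deficient 2, 77.7% in NPC1-deficient 3 and 79.5% in wildtype 4, while the median of the other members tested was 98.8% to 100.8% in every library. The median of all 1405 tested genes with over 10 kb of exon lay on the same side, closer to 100%, at 106.6% in NPC1-deficient 2, 93.6% in NPC1-deficient 3 and 93.7% in wildtype 4.

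**Figure D4:**
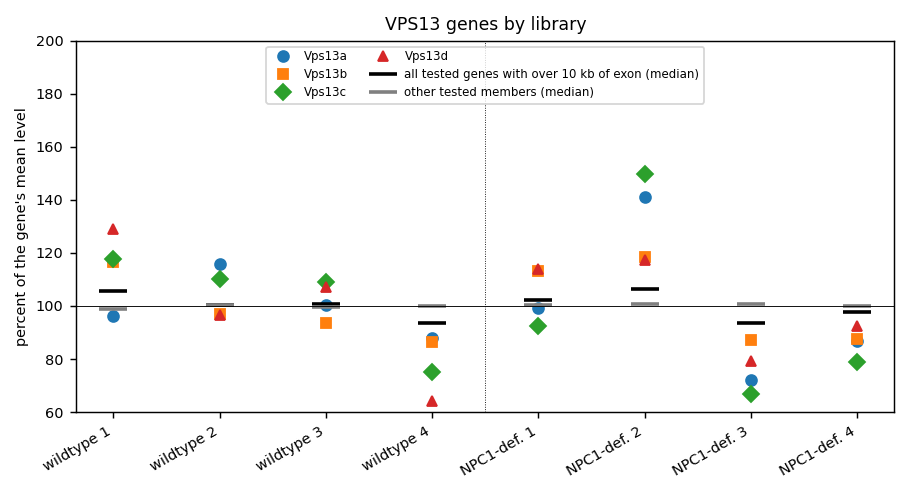
Level of Vps13a, Vps13b, Vps13c and Vps13d in each library as a percent of the gene's mean over the 8 libraries; black bars give the median of the 1405 tested genes with over 10 kb of exon and grey bars that of the other members tested. The VPS13 genes lie low in wildtype 4 and NPC1-deficient 3 and high in NPC1-deficient 2.

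Over all members, the VPS13 genes included, such splits of the NPC1-deficient libraries came at shares not far from those of all genes. NPC1-deficient 1 and 2 both lay above 3 and 4 for 25 of 74 members (33.8%), beside 27.5% of all genes tested, and both below for 19 (25.7%), beside 27.1%. The mean log2 difference of libraries 1 and 2 from 3 and 4 was 0.68, 0.58, 0.43 and 0.40 for Vps13c, Vps13a, Vps13d and Vps13b, the 4 highest members. Snx29, Snx30, Vps39 and Hgs followed at 0.37, 0.34, 0.32 and 0.31. The lowest were Vps25, Vps72, Snx20 and Tsg101, at -0.28, -0.27, -0.25 and -0.24. Across the 73 members tested with an exon length, this difference had a Pearson correlation of 0.64 with the log2 exon length, 0.45 over the 69 without the VPS13 genes and 0.19 over all 15235 genes. These are correlations across genes of the same libraries, and genes are not independent replicates. The log2 fold change between genotypes had a correlation of -0.051 with exon length over the same 73 members.

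**Figure D5:**
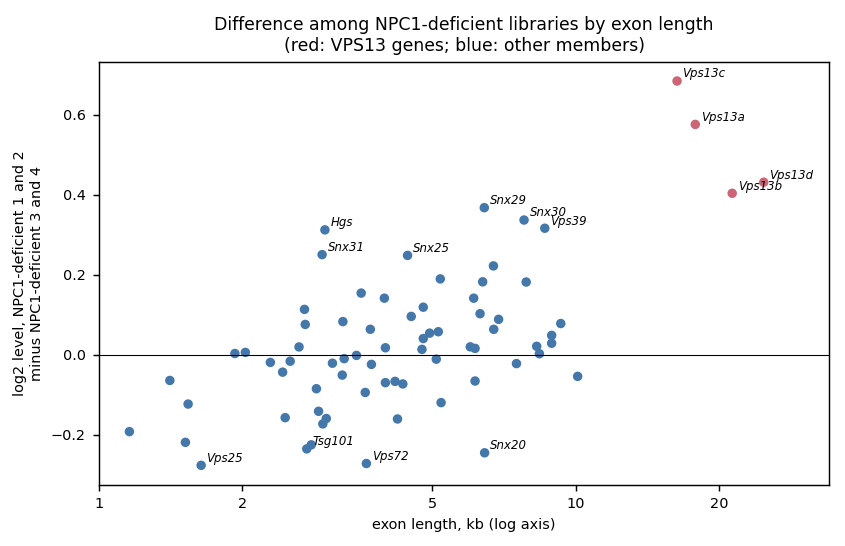
Difference in mean log2 level between NPC1-deficient 1 and 2 and NPC1-deficient 3 and 4 against exon length (log axis) for the 73 members tested with a length; VPS13 genes are red, other members blue, and members beyond 0.23 in either direction are named. The VPS13 genes, the longest members, lie highest, with Vps13c at 0.68. Other long members are mixed, with Vps39 at 0.32 and Snx30 at 0.34, but Vps35 at 0.029 and Snx10 at 0.078.

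Genes that work with these members but fall outside the naming rule were counted in the same fit. Of 14 ESCRT partners, 0 passed, 12 had a positive fold change and the median was 0.024. The smallest p among them was for the deubiquitinase gene Usp8, at 0.23 (SE 0.14, adjusted p = 0.891 by limma), followed by Mitd1 at 0.33 (SE 0.23, adjusted p = 0.928 by limma). Usp8 stood at 499, 482, 428 and 449 normalized reads in wildtype 1 to 4 and at 655, 671, 467 and 429.5 in NPC1-deficient 1 to 4, so NPC1-deficient 1 and 2 were the only libraries above 500. Of 21 partners of retromer, the WASH complex and commander, 0 passed and 15 had a positive fold change. Ehd1, which helps cut recycling tubules, stood at 4337, 4396, 4261 and 4130.3 normalized reads in wildtype 1 to 4 and at 4447, 4935, 4839 and 4671 in NPC1-deficient 1 to 4. All its NPC1-deficient libraries lay above all wildtype libraries, and the log2 fold change was 0.14 (SE 0.049, adjusted p = 0.456 by limma). Ankrd27, a retromer-binding RAB regulator, had 0.27 (SE 0.14, adjusted p = 0.802 by limma).

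Sorting receptors, the cargo that retromer returns, did not pass either, 0 of 7, with a median of 0.070. Igf2r, the large mannose 6-phosphate receptor that carries newly made lysosomal enzymes, had a log2 fold change of 0.16 (SE 0.14, adjusted p = 0.977 by limma), and Sorcs1 had 0.10 (SE 0.11, adjusted p = 0.994 by limma). The summed level of the 7 receptors was 17060 and 16836 normalized reads in NPC1-deficient 1 and 2 and 13579 and 13899 in NPC1-deficient 3 and 4, the side on which the VPS13 genes were also higher. Of 8 enzymes that make or remove the endosomal lipids PI3P and PI(3,5)P2, 0 passed. Vac14, the scaffold of the PI3P kinase PIKFYVE, had 0.13 (SE 0.067, adjusted p = 0.802 by limma), and Pik3c3, the kinase that makes PI3P, had -0.12 (SE 0.092, adjusted p = 0.955 by limma). Of 3 tether partners 0 passed, with Vipas39 at 0.045 (SE 0.053, adjusted p = 0.995 by limma) and Rab7, the late endosome GTPase, at 0.022 (SE 0.044, adjusted p = 0.995 by limma).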

How the data were processed

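Each value the authors deposited is a signal: a gene's reads scaled by the size factor of its library. Undoing that scaling turned all 199536 values into whole reads, to within 1e-06 of a read (100%). Per the submitters' processing notes, which state no roles, the tools were CASAVA 1.8.2, HTSeq 0.5.4p3 and DESeq2 1.0.19, on mm10. The aligner's name and the annotation release were not given in the sources used here. Per the labels' protocols the library kit was one that does not mark strand, and overlapping antisense genes cannot be told apart.

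Libraries were grouped by title. Genes with a mean of at least 10 were tested as log2(value + 1), which understates folds of low genes, with limma 3.58.1 in R 4.3.3 (mean-variance trend, no covariate) and Benjamini-Hochberg adjustment at 0.05 over all genes. EdgeR 4.0.16 and DESeq2 1.42.0 were run on the recovered reads. Exon lengths came from GENCODE M21, which holds 74 of the 75 member identifiers (not that of Vps28). A gene's length is the union of the exons of all its annotated transcripts, whether or not these cells use them. Levels per kilobase, and their order between genes, depend on that choice. Intervals have a level of 95%.

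Members and lists were chosen with earlier results of these data known. The genes named with values for every library are the 2 with the smallest p in each role, the 6 with the lowest and the 6 with the highest fold change, and Vps13a, Vps13d, Snx33, Usp8 and Ehd1, chosen after their values were seen. A fixed set of core subunits has means, and each partner list names the 2 genes with the smallest p. Other members were named after their values were seen. The planned comparison of paralog proteins is not reported here.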

Additional observations from a re-analysis of the deposited data

Results flagged for a closer look

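In each group of 4 libraries, the gap between the highest or the lowest library and its neighbour was set against the whole range. By Dixon's test at the 95% level, a library stood apart in 4 of 150 groups of members (2.67%), and chance gives about 1 in 20. Snx8 was 2873 normalized reads in NPC1-deficient 1 and 3039 to 3063 in the other 3 libraries. Vps37d was 1022 in NPC1-deficient 1 and 1205 to 1240 in the others. Vps28 was 7459 in NPC1-deficient 2 and 8231 to 8388 in the others. Vps53 was 2128 in wildtype 1 and 1936 to 1961 in the others.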

How the results depend on the processing

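Members called numbered 0 under all 22 alternatives run (other pseudocounts, filters, scalings and tools, a block, subsets of libraries), and the smallest adjusted p of a named member was 0.161, for Snx25 in limma on libraries 3 and 4 alone. The median log2 fold change of members stayed between -0.0035 and 0.0184. Of 47 named members, 17 kept the sign of the fold change under every alternative that gave them a value (21 for Snx20, 19 for Chmp4c and 22 for the other 15), among them Stam2 (0.0984 to 0.186), Vps37c (-0.217 to -0.130), Snx20 (-0.785 to -0.526), Vps35 (0.0392 to 0.0824) and Vps4a (0.0369 to 0.0634). Over all genes, where 16 were called, the count was 10 at a minimum mean of 50, 34 with the replicate block, 99 with the library set as a term, 57 in libraries 1 and 2 alone, 335 in libraries 3 and 4 alone, 246 with DESeq2, and 170 without both libraries 1, an alternative added after the data were seen. Leaving out single libraries gave 2 to 144, namely 144, 4, 5 and 35 without wildtype 1 to 4 and 26, 4, 2 and 33 without NPC1-deficient 1 to 4. Members without overlap of the groups, 4 in all libraries, were 26 in libraries 1 and 2 alone (40.2% of all genes), 34 in libraries 3 and 4 alone (44.2%), 7 without both libraries 1, and 4 to 8 without single libraries (6.2% to 8.8% of all genes). The cause was not tested. Between wildtype and NPC1-deficient libraries of the same number, deviations from the group means correlated between -0.066 and -0.017. These correlations do not test libraries 1 and 2 against 3 and 4. With the replicate block 0 members were called, as without it, so the members' calls cannot show whether such libraries share anything.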
